A study of Mus musculus with 6 samples.

Results

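The genes described here are 6 immediate early transcription factors, the EGR members Egr1, Egr2 and Egr3 and the NR4A members Nr4a1, Nr4a2 and Nr4a3, which are 6 of the 31053 genes in the files. They were chosen by symbol because, in earlier results of these data, Nr4a1 was higher and EGR genes were lower in microglia after brain ischaemia, so the members' time courses in microglia are given as a description with no test. All 6 were found by symbol, and their Ensembl identifiers matched GENCODE vM21 on build GRCm38. The data are single-cell transcript counts of living CD45-positive cells sorted from mouse brain, in 6 libraries that each pooled 3 brains of C57BL/6 mice. Both genotypes carried the Cd300a-fl/fl allele, and Lyz2-cre mice (Cd300a-fl/fl Lyz2-cre) also carried Cre recombinase in the Lyz2 gene, which drives it in myeloid cells, while fl/fl mice carried no Cre. Each genotype had 1 library from naive mice and 1 each from mice whose middle cerebral artery had been blocked by a filament for 60 min and then reperfused for 1 h or 3 h. The earliest time is 0 h in the series design and naive in the sample titles, and ages were not stated.

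Immediate early genes are transcribed within minutes of a stimulus without new protein synthesis, and they encode factors that switch on later programmes. EGR1, EGR2 and EGR3 are zinc finger factors whose genes are driven largely by MAP kinases through serum response factor at CArG boxes, and NAB1 and NAB2 are corepressors that bind them. NR4A1, NR4A2 and NR4A3 are nuclear receptors that act without a known ligand in the classical sense, and their genes respond to cAMP and CREB, calcium and NF-kB signals. In mice NR4A1 is required for the patrolling, Ly6C-low monocyte. Both families are among the genes that tissue dissociation can also induce.

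Egr2 lies at chr10:67535475-67542188, Egr3 at chr14:70077203-70082614, Nr4a1 at chr15:101254269-101274795, Nr4a2 at chr2:57106830-57124003 and Nr4a3 at chr4:48045153-48086447 (GRCm38). The promoters are shown because the families are known to be driven by different upstream elements. None is shown for Egr1 or Egr3, so the EGR side is Egr2 alone, the EGR member that moved least in microglia-like cells. A link between these elements and the members' values was not tested. They come from RefSeq (GRCm38.p6) and run 5′ to 3′ up to the RefSeq start, or for Nr4a3 up to its GENCODE start. Capitals mark the half-site of the cAMP response element (TGACG, or CGTCA on the other strand) and, in Egr2, the CArG box.
Egr2, chr10:67537619-67537868, plus strand: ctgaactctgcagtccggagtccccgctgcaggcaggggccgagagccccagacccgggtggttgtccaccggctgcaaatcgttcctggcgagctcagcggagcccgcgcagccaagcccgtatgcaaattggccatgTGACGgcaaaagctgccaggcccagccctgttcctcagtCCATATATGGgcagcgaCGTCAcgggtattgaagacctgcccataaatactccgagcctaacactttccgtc
Nr4a1, chr15:101266596-101266845, plus strand: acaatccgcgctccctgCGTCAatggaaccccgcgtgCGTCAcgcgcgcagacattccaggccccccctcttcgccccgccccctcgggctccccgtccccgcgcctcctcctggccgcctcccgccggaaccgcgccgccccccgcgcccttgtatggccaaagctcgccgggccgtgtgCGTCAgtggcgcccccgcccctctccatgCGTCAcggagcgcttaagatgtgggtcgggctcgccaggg
Nr4a2, chr2:57124004-57124253, minus strand: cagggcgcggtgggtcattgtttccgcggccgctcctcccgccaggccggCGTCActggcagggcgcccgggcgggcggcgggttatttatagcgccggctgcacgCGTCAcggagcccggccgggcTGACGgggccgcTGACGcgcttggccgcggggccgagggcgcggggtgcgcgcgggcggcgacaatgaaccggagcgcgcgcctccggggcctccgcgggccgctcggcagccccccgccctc
Nr4a3, chr4:48045055-48045152, plus strand: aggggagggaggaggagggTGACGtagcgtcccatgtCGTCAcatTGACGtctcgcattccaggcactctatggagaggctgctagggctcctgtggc

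Each RefSeq window of 300 bases (250 before and 50 after the RefSeq start) of Nr4a1, Nr4a2 and Nr4a3 held 4 half-sites. For Nr4a3 the GENCODE start lies upstream of the RefSeq one, and the 98 bases printed, with 3 of its half-sites, end at the GENCODE start. The stretches printed for Nr4a1 and Egr2 lie inside the gene spans given above, downstream of the first base of those spans. At least 4 half-sites were found in 0.231% of the 32851 windows of all genes, and at least 1 in 20.8%. The Egr2 window, one of 3 overlapping windows with the most matches among the 5 listed for that gene, held 2 half-sites and 1 CArG box. At least 2 half-sites were found in 5.01% of all windows, and a CArG box in 1.63%. None of the 3 NR4A windows held a CArG box, and that of Nr4a1 held 1 match to an EGR site, found in 3.47% of all windows. A match describes letters in these windows and shows no binding. Egr1 and Egr3 are named only.

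Cells were grouped by marker genes after clustering without the 6 members, and class names carry the ending -like because they rest on those markers. After filters, 47077 of 51005 barcodes were used, between 6719 and 9611 per library, with 35479437 to 48478866 unique molecular identifiers (UMIs) per deposited library. Between 12 and 30 barcodes were shared by any pair of libraries. Microglia-like cells numbered 4743 to 7318 per library, and all 9 of their markers were detected in every library. Levels are UMIs per 1000000 UMIs of the same class and library (CPM), and since only the 3′ end of a transcript was read they are compared within a gene, not between genes. Lyz2 averaged far less in Lyz2-cre than in fl/fl libraries: in monocyte-like cells it ran from 26.5 to 97.4 CPM in Lyz2-cre mice, against 19450 to 23860 CPM in fl/fl mice. Cd300a in neutrophil-like cells ran from 9.86 to 16.2 CPM in Lyz2-cre mice and from 128 to 256 CPM in fl/fl mice. In microglia-like cells Cd300a was at 137 to 171 CPM in Lyz2-cre mice and 172 to 212 CPM in fl/fl mice. Which part of Cd300a was deleted was not stated, so a 3′ tag may not show the deletion.

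In microglia-like cells the EGR members stood lower and the NR4A members higher at 1 h than in naive brain, in both genotypes. Egr1, which encodes a zinc finger activator of growth and inflammatory genes, was at 3653 CPM in naive, 801 CPM in 1 h and 2240 CPM in 3 h Lyz2-cre libraries. In fl/fl libraries naive brain had 3899 CPM of Egr1, 1 h had 1059 CPM and 3 h had 2412 CPM. The 2 libraries of 1 h lay below the other 4, and those of 3 h lay below both naive libraries. The fitted log2 difference of Egr1 was -1.93 for 1 h and -0.62 for 3 h, each against naive.

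Egr3, a close relative that acts downstream of many of the same signals, followed the same order of times. It was at 66.3 CPM in naive, 17.7 CPM in 1 h and 34.2 CPM in 3 h Lyz2-cre libraries, and at 101 CPM, 28.5 CPM and 49.3 CPM at the same times in fl/fl libraries. Egr2, known for its part in myelination and in macrophage and lymphocyte differentiation, moved least. It was at 57.8 CPM in naive, 28.4 CPM in 1 h and 51.2 CPM in 3 h Lyz2-cre libraries, and at 70.0 CPM, 44.4 CPM and 71.7 CPM in fl/fl libraries. Both 1 h libraries were the lowest for Egr2, and the 3 h and naive libraries overlapped.

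Nr4a1, which restrains inflammatory gene expression in macrophages, was at 25.7 CPM in naive, 150 CPM in 1 h and 204 CPM in 3 h Lyz2-cre libraries. In fl/fl libraries naive brain had 37.7 CPM, 1 h had 243 CPM and 3 h had 259 CPM. Within a genotype, the 1 h level was 5.84 times the naive level in Lyz2-cre and 6.45 times in fl/fl mice, and the 3 h level 7.96 and 6.87 times. All 4 libraries after ischaemia lay above both naive libraries. Per 100 Egr1 UMIs, microglia-like cells held 0.702 Nr4a1 UMIs in naive, 18.7 in 1 h and 9.11 in 3 h Lyz2-cre libraries, and 0.966, 22.9 and 10.7 in fl/fl libraries.

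Nr4a2, best known from dopamine neurons, was close to absent from naive microglia-like cells. It was at 0.394 CPM (12 UMIs) in naive, 7.75 CPM in 1 h and 9.0 CPM in 3 h Lyz2-cre libraries, and at 0.786 CPM (22 UMIs), 6.48 CPM and 36.3 CPM in fl/fl libraries. At 3 h the Lyz2-cre library was at 0.248 of the fl/fl level, and without the fl/fl 3 h library the fitted log2 difference of 3 h against naive was 3.95 in place of 5.20. Nr4a3 was at 0.361 CPM (11 UMIs) in naive, 3.42 CPM in 1 h and 17.7 CPM in 3 h Lyz2-cre libraries, and at 0.322 CPM (9 UMIs), 10.4 CPM and 38.2 CPM in fl/fl libraries. For both genes the naive and later libraries did not overlap. Fitted log2 differences at 1 h were 2.72 for Nr4a1, 3.83 for Nr4a2 and 4.33 for Nr4a3. At 3 h they were 2.97, 5.20 and 6.39, and without the fl/fl naive library Nr4a3 was at 3.51 for 1 h and 5.54 for 3 h, while Nr4a2 at 1 h was at 5.04 without the fl/fl 1 h library.

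**Figure D1:**
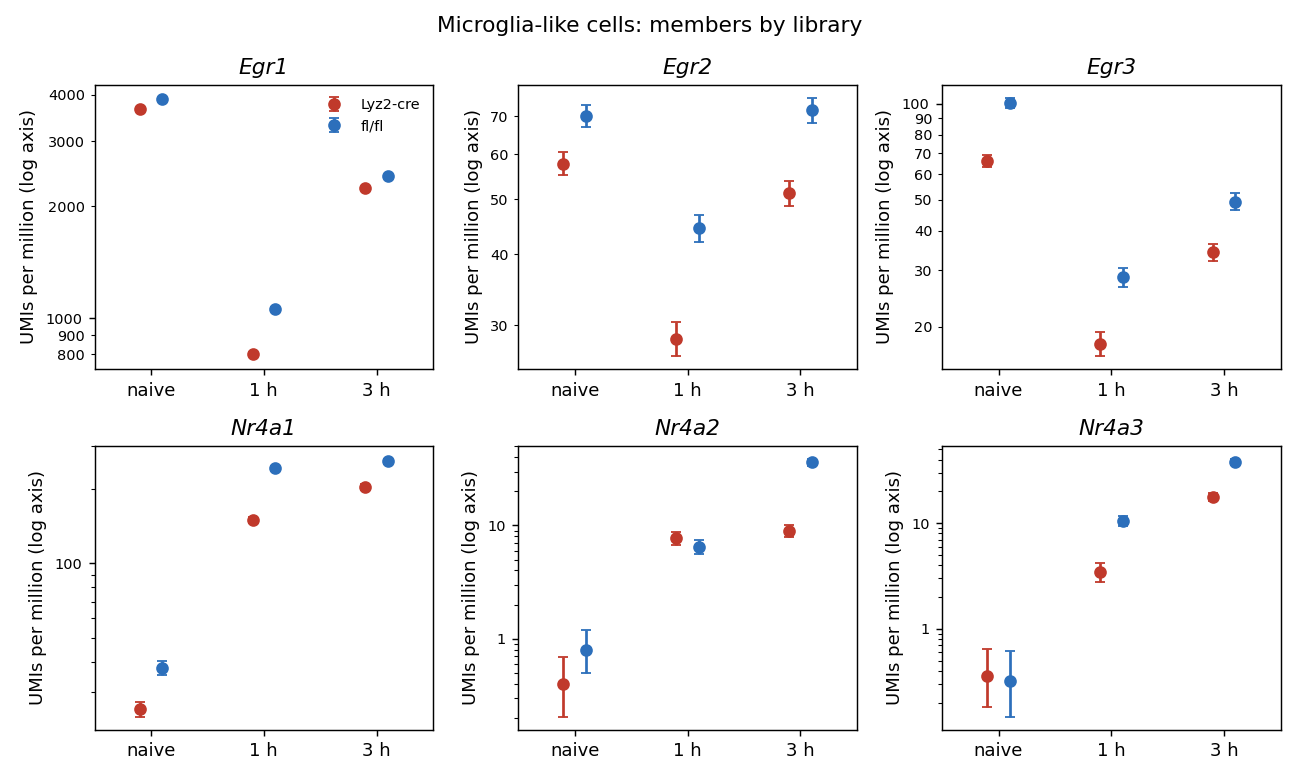
Levels of the 6 members in microglia-like cells, as CPM on a log axis, at each time for Lyz2-cre (red, left) and fl/fl (blue, right) libraries. Each point is 1 library and bars are exact 95% Poisson intervals, which cover counting error only; the EGR members are lowest at 1 h and the NR4A members lowest in naive brain.

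The same pattern was seen in the share of cells, after each cell was thinned to 1000 UMIs. An Egr1 UMI was found in 92.8% of naive, 42.8% of 1 h and 57.4% of 3 h microglia-like cells of Lyz2-cre mice, and in 93.9%, 50.5% and 64.5% of those of fl/fl mice. For Nr4a1 the shares were 2.39%, 10.6% and 12.6% in Lyz2-cre mice and 2.94%, 15.3% and 14.9% in fl/fl mice. In neutrophil-like cells thinned in the same way, Nr4a1 was found in 2.96% to 7.01% of cells and Egr1 in 11.8% to 24.7%. The naive Nr4a1 shares of microglia-like cells were below the neutrophil-like range, and the shares of 1 h and 3 h were above it. Without thinning, Nr4a1 was found in 8.07%, 23.5% and 24.98% of microglia-like cells of Lyz2-cre mice at the 3 times and in 10.8%, 31.4% and 29.3% of those of fl/fl mice. Median depths before thinning were 3904 to 5198 UMIs in microglia-like and 2247 to 4205 UMIs in neutrophil-like cells. Thinning left out 29 to 113 microglia-like and 2 to 25 neutrophil-like cells per library.

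At 1 h, Nr4a1 was found more often in the microglia-like cells that still had an Egr1 UMI than in those without one. Among microglia-like cells thinned to 2000 UMIs, which left out 120 to 613 cells per library, 24.8% of those with an Egr1 UMI also had an Nr4a1 UMI in the Lyz2-cre 1 h library, against 6.18% of those with none. In the fl/fl 1 h library the shares were 31.9% and 7.14%. At 3 h they were 25.2% and 7.15% in the Lyz2-cre library and 26.5% and 9.43% in the fl/fl library. In naive brain, where 97.6% of Lyz2-cre and 98.0% of fl/fl cells had an Egr1 UMI at this depth, Nr4a1 was found in 3.99% and 5.99% of the Egr1-positive cells. Egr3 gave the same order: 48.8% of Egr3-positive against 15.9% of Egr3-negative cells held Nr4a1 in the Lyz2-cre 1 h library, and 58.8% against 21.4% in the fl/fl 1 h library. Monocyte-like cells had no such order: at 1 h, Nr4a1 was found in 28.6% of Egr1-positive and 48.5% of Egr1-negative cells of the Lyz2-cre library, and in 44.4% and 43.8% of those of the fl/fl library. Cells of 1 library are not replicates, so no test is given.

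**Figure D2:**
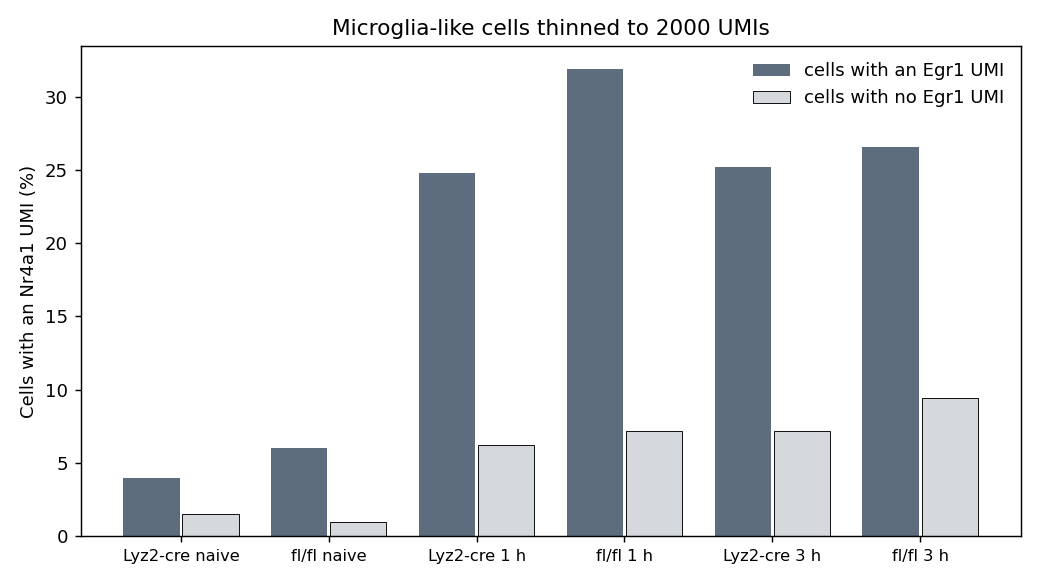
Share of microglia-like cells with an Nr4a1 UMI, in percent, among cells with (dark bars) and without (light bars) an Egr1 UMI, for each library after thinning to 2000 UMIs per cell. In every library the dark bar is the taller one, at 24.8% against 6.18% in the Lyz2-cre 1 h library.

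The 12 microglia-like clusters were built without the 6 genes, and cells of naive and of later libraries lay mostly in different ones. A cluster led by Rcan1, Ccrl2 and Cd83 held 33.8% of the Lyz2-cre and 40.7% of the fl/fl microglia-like cells of 1 h. There Egr1 was at 1465 CPM and Nr4a1 at 383 CPM in the Lyz2-cre library, and at 1662 CPM and 447 CPM in the fl/fl library. A cluster led by Rnase4, Thrsp and P2ry12 held 47.9% and 32.7% of the same cells. In it Egr1 was at 324 CPM and Nr4a1 at 11.8 CPM in the Lyz2-cre 1 h library, and at 218 CPM and 6.82 CPM in the fl/fl 1 h library. The lowest Egr1 levels and the high Nr4a1 levels of 1 h were thus counted in different clusters. A middle Egr1 level did not come with high Nr4a1 everywhere: in a cluster led by Ddit4 Egr1 was at 1358 CPM and Nr4a1 at 45.9 CPM in the Lyz2-cre 1 h library, and at 1527 CPM and 21.4 CPM in the fl/fl 1 h library. In a cluster led by Btg2 they were at 1287 CPM and 59.5 CPM in the Lyz2-cre and at 1375 CPM and 45.2 CPM in the fl/fl 1 h library. The Btg2-led cluster held 62.0% of the Lyz2-cre and 59.2% of the fl/fl naive cells, with Egr1 at 3682 CPM and 3948 CPM and Nr4a1 at 31.3 CPM and 45.0 CPM. A cluster led by Fosb held 32.2% and 32.5% of the naive cells, with Egr1 at 3746 CPM and 3971 CPM and Nr4a1 at 15.8 CPM and 28.2 CPM. At 3 h a cluster led by Gdf15 held 19.3% of the Lyz2-cre and 26.5% of the fl/fl cells, with Egr1 at 3935 CPM and 2886 CPM and Nr4a1 at 481 CPM and 355 CPM. One led by Hspa1a had Egr1 at 2515 CPM and 3183 CPM and Nr4a1 at 542 CPM and 778 CPM in the same libraries. A cluster found in few libraries may reflect those libraries.

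**Figure D3:**
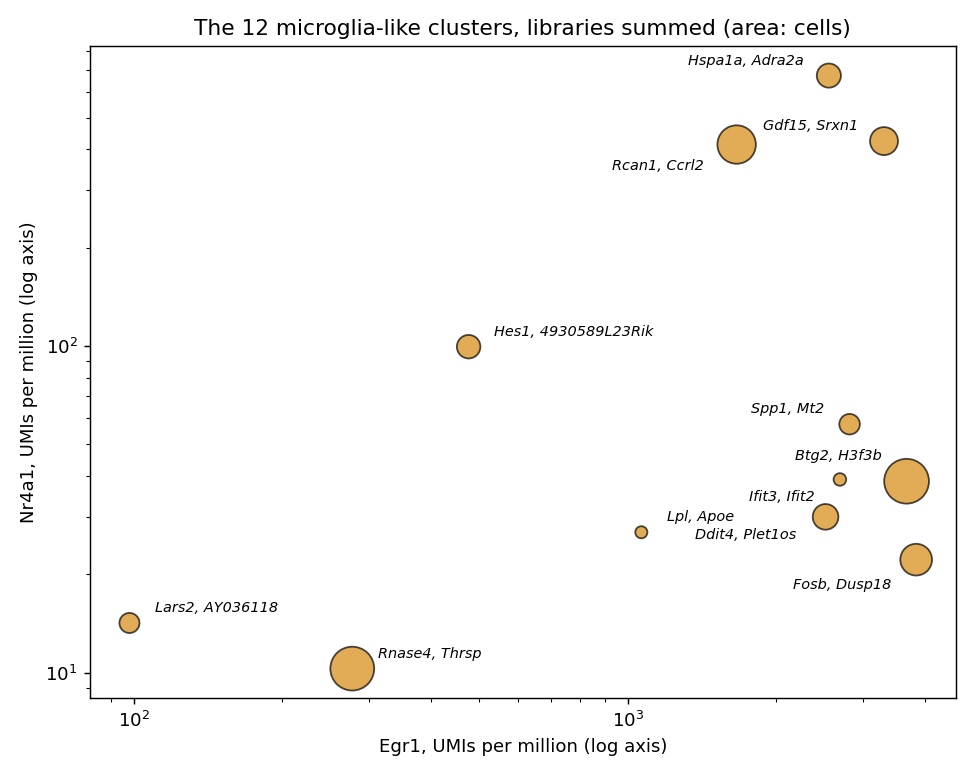
Egr1 (x axis) against Nr4a1 (y axis) in the 12 microglia-like clusters, in CPM over all libraries, both axes log; the area of a point is its number of cells and the labels are 2 leading genes other than the members. Clusters led by Hspa1a, Gdf15 and Rcan1 stand at 413 to 672 CPM of Nr4a1, and the Fosb-led cluster, which is made up mostly of naive cells, is at 22.2 CPM.

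Genes around the 2 families were read from lists, which were drawn up with earlier results of these data known, and the counts use edgeR's quasi-likelihood test with Benjamini-Hochberg adjustment at 0.05. In microglia-like cells that test called 26.8% of all genes at 1 h against naive (12.8% lower) and 47.6% at 3 h against naive. Of 21 other immediate early genes tested, 15 fell and 3 rose at 1 h, with a median log2 difference of -1.24, against -0.01 over all genes. Fosb, a partner in AP-1, was at 143 CPM in the Lyz2-cre and 134 CPM in the fl/fl library of 1 h, against 988 CPM and 1155 CPM in naive ones, a log2 difference of -2.85 (SE 0.11, adjusted p = 7.99e-07). Fosl2, another AP-1 gene, rose by 1.97. At 3 h, 8 of the 21 rose and 9 fell, and Maff was among those that rose, at 3.47.

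Of 14 genes of the MAP kinase route to serum response factor, 4 fell and none rose at 1 h, and none of the 4 fell by more than 0.54. The one that encodes serum response factor itself, Srf, fell by 0.38. Of 9 feedback inhibitors of that route, 5 rose and 3 fell: Dusp4, a nuclear MAP kinase phosphatase, rose by 3.19, and Dusp6, which acts on ERK, fell by 0.95. Dusp4 was at 1.90 CPM in Lyz2-cre and 2.57 CPM in fl/fl libraries of 1 h, and Dusp6 at 224 CPM and 254 CPM. The summed level of the 11 listed inhibitors was lower at 1 h, at 436 CPM and 498 CPM against 674 CPM and 774 CPM in naive ones. At 3 h that sum was 777 CPM and 672 CPM. Of 16 EGR relatives, corepressors and genes described as EGR1 targets, 5 rose and none fell at 1 h, and 13 rose and 1 fell at 3 h. Nab2, the corepressor, rose by 1.43 at 1 h, to 52.8 CPM in Lyz2-cre and 110 CPM in fl/fl libraries, against 29.2 CPM and 32.4 CPM in naive ones.

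Of 9 CREB and cAMP targets tested, 5 rose and 1 fell at 1 h. The summed level of the 12 listed genes was lower at 1 h, however. It was 971 CPM in Lyz2-cre and 924 CPM in fl/fl libraries, against 1370 CPM and 1416 CPM in naive ones. Sik1, a CREB-induced kinase, rose by 2.22, Gem by 1.75 and Crem, a CREB relative, by 1.42, while Rgs2, a brake on G protein signalling, fell by 0.93. Of 18 genes of the calcineurin, NFAT and MEF2 list, 1 rose and 2 fell at 1 h. The one that rose was Rcan1, a calcineurin-induced inhibitor of calcineurin, at 507 CPM in the Lyz2-cre and 861 CPM in the fl/fl library of 1 h, against 42.9 CPM and 35.4 CPM in naive ones (log2 difference 4.19, SE 0.28, adjusted p = 0.00256). Of 8 NR4A partners and targets, 2 rose at 1 h, the survival gene Bcl2 by 0.43 and Tox2, a relative of Tox, by 1.70, the second at 0.381 CPM in Lyz2-cre and 0.461 CPM in fl/fl libraries of 1 h.

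Of 14 NF-kB subunits and feedback genes, 3 rose and 2 fell at 1 h, and 11 rose and 1 fell at 3 h. Nfkbiz, which encodes a nuclear IkB protein, fell by 2.48 at 1 h, and Nfkbid, its relative, rose by 1.52. Genes described as induced when microglia are taken out of tissue were mixed: of 24, 7 rose and 11 fell at 1 h, and 11 rose and 10 fell at 3 h. The heat shock gene Hspa1a was at 523 CPM in Lyz2-cre and 1429 CPM in fl/fl libraries of 1 h, against 23.0 CPM and 30 CPM in naive ones, a log2 difference of 5.15. The summed level of these 24 genes was 19460 CPM in Lyz2-cre and 23450 CPM in fl/fl libraries of 1 h, against 35530 CPM and 42270 CPM in naive ones. At 3 h that sum was above the naive one in both genotypes, at 37000 CPM and 50840 CPM. The part of handling outside the animal in the members' values was not tested.

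Across classes, the EGR members had their highest median over the 6 libraries in microglia-like cells, and the NR4A members did not. Egr1 had a median of 2326 CPM in microglia-like cells (801 to 3899), then 671 CPM in border-associated macrophage-like cells (307 to 1889), and 171 to 272 CPM in the other 6 classes, whose ranges all overlapped. Egr2 was at a median of 54.5 CPM in microglia-like and 40.8 CPM in border-associated macrophage-like cells, with overlapping ranges, and at 13.1 CPM or less elsewhere. Egr3 was at 41.8 CPM in microglia-like and 38.6 CPM in B cell-like cells, also overlapping, and at 10.5 CPM or less elsewhere. Nr4a1 was at 334 CPM in monocyte-like cells (174 to 726), 177 CPM in microglia-like cells (25.7 to 259) and 35.9 CPM in neutrophil-like cells (27.4 to 80.4). Its other medians lay between 49.4 CPM and 132 CPM, each overlapping its neighbours in the order. Nr4a2 was at 183 CPM in NK cell-like cells (95.3 to 252) and 109 CPM in conventional dendritic cell-like cells, and at 0.81 CPM in neutrophil-like cells. Nr4a3 was at 58.1 CPM in conventional dendritic cell-like and 55.6 CPM in border-associated macrophage-like cells, and at 10.1 CPM or less in neutrophil-like, microglia-like, monocyte-like and B cell-like cells.

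Time effects in classes other than microglia-like cells were assessed on summed counts by edgeR's quasi-likelihood test, with genotype and time in the model. That fit has 2 residual degrees of freedom, no group has a second library, and the 2 time contrasts share the naive libraries. Adjusted p-values below are Benjamini-Hochberg values over all genes tested in that class. Microglia markers were also counted in the other classes and moved with some results, and their part in those results was not tested. The microglia marker P2ry12 stood at 2.2% to 10.2% of its microglia-like level in monocyte-like cells, at 2.8% to 10.7% in neutrophil-like cells and at 3.2% to 13.3% in border-associated macrophage-like cells. All 9 microglia markers were detected in those 3 classes in every library. Their sum was 2684 to 6282 CPM in border-associated macrophage-like, 377 to 2575 CPM in monocyte-like and 297 to 2881 CPM in neutrophil-like cells, against 17658 to 35447 CPM in microglia-like cells.

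Border-associated macrophage-like cells, the resident macrophages of meninges and vessels, showed EGR members falling and NR4A members rising at 1 h. They numbered 33 to 106 per library. Egr1 was at 390 CPM in Lyz2-cre and 307 CPM in fl/fl libraries of 1 h, against 1889 CPM and 1471 CPM in naive ones, a log2 difference of -2.26 (SE 0.21, adjusted p = 5.2e-06). The microglia-like Egr1 level times the P2ry12 ratio was 25.6 CPM and 141 CPM at 1 h, against 168 CPM and 189 CPM in naive brain. For Nr4a1 that product was 4.78 CPM and 32.4 CPM at 1 h, against 1.18 CPM and 1.83 CPM. Less the product, Nr4a1 stood at 310 CPM and 71.4 CPM at 1 h, against 85.85 CPM and 34.2 CPM in naive brain. Nr4a1 was at 315 CPM and 104 CPM at 1 h, against 87.0 CPM and 36.1 CPM in naive brain, so the fl/fl 1 h library lay close to the Lyz2-cre naive one. Its log2 difference was 1.73 (SE 0.30, adjusted p = 0.00208), and the call was lost without the Lyz2-cre naive library (adjusted p = 0.0707) and with doublets kept (0.0509).

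Nr4a2 in border-associated macrophage-like cells was at 198 CPM and 184 CPM at 1 h in Lyz2-cre and fl/fl libraries, against 29.6 CPM and 7.21 CPM in naive ones (log2 difference 3.29, SE 0.43, adjusted p = 0.000153). Nr4a3 was at 192 CPM and 66.0 CPM at 1 h, against 17.4 CPM and 2.40 CPM (3.60, SE 0.47, adjusted p = 0.000136). For both the groups did not overlap. Egr2 fell by 3.39 (SE 0.57, adjusted p = 0.00146), with 3 UMIs in both 1 h libraries together against 108 in the naive ones, a ratio of 0.0768 (95% interval 0.0156 to 0.231). So 5 of the 5 members that passed the filter on low counts were called at 1 h, where 6.5% of all genes were. Nr4a2 and Nr4a3 passed it only through the libraries of 1 h and 3 h, where they were high. Their place in this count thus depended on the rise being counted. The sixth, Egr3, had no UMI at 1 h against 52 in naive libraries and was at least 6.27-fold lower, at a floor of 3 UMIs over both libraries. At 3 h, where 23.8% of all genes were called, Egr1 fell by 1.27 (adjusted p = 0.000219), Egr2 fell by 1.13 (0.0252) and Nr4a3 rose by 2.75 (0.000667). Nr4a1 and Nr4a2 did not pass at 3 h, with log2 differences of 0.32 and 1.18. The Egr2 call of 3 h was lost in 4 of 13 alternatives, among them without the Lyz2-cre 3 h (difference -0.61), Lyz2-cre naive (-0.67) or fl/fl naive library (-1.36). Nr4a2 at 3 h passed without the Lyz2-cre naive (2.65), Lyz2-cre 3 h (1.74), Lyz2-cre 1 h (1.25) or fl/fl 1 h library (1.25).

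Among the lists, 9 of 18 other immediate early genes fell and 2 rose in border-associated macrophage-like cells at 1 h, 4 of 7 CREB and cAMP targets rose and 2 fell, and 6 of 13 EGR relatives and targets rose and none fell.

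**Figure D4:**
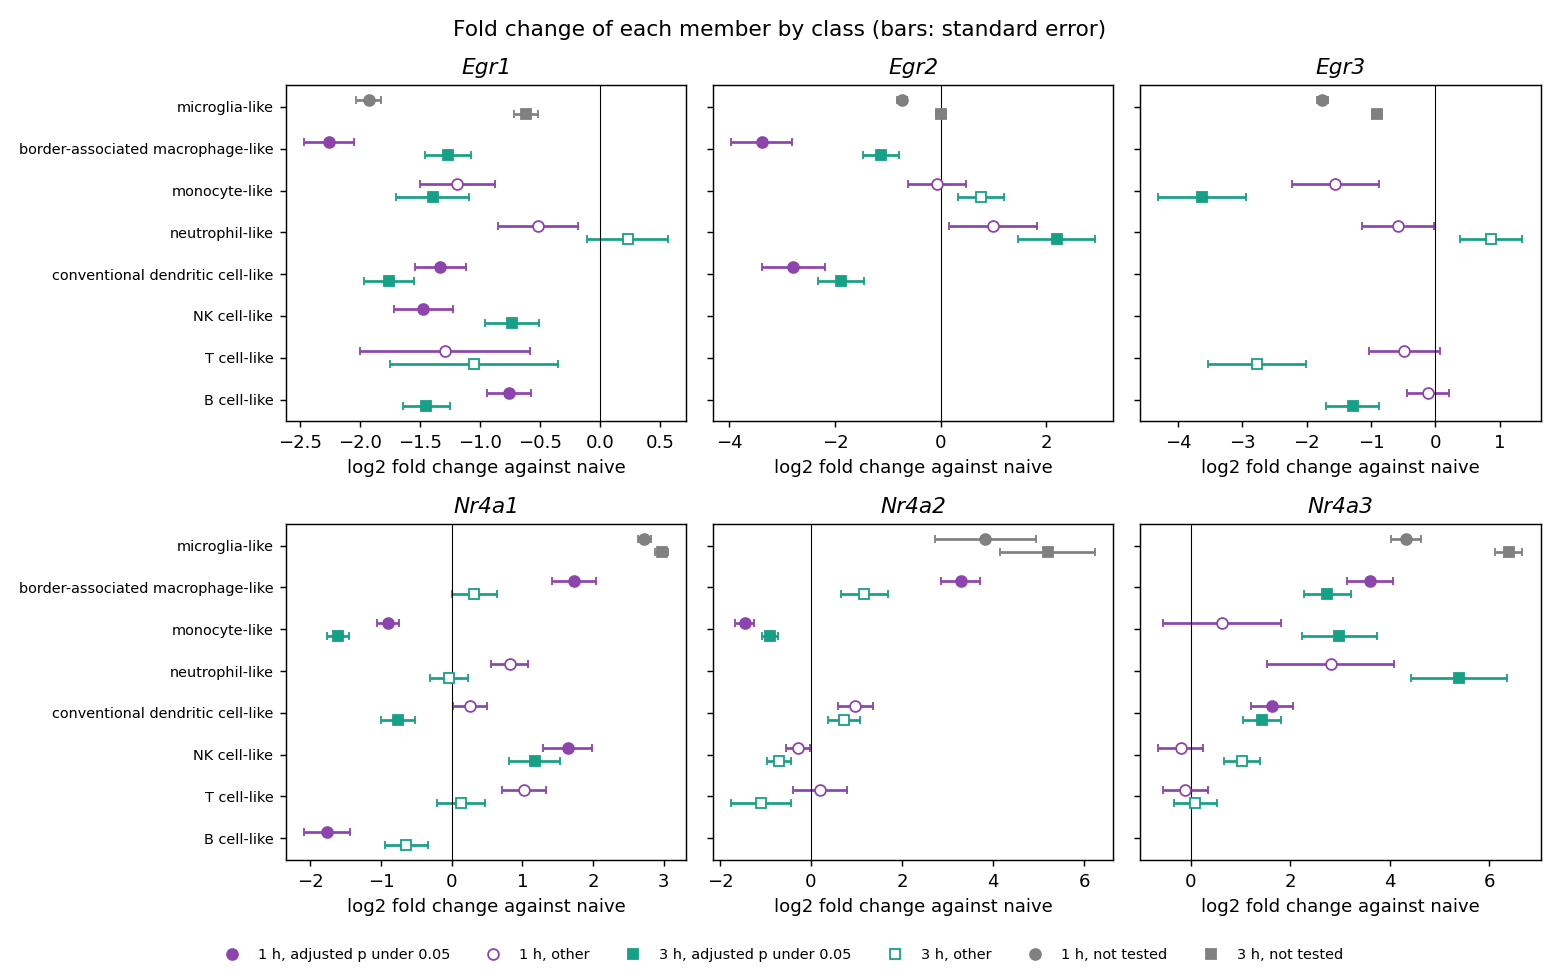
Log2 fold change of each member at 1 h (circles) and 3 h (squares) against naive, by class, with standard errors as bars. Filled coloured points passed an adjusted p of 0.05 in edgeR's quasi-likelihood test, open ones did not, grey microglia-like points were not tested because the genes were chosen on them, and classes without a point did not pass the filter on low counts. Nr4a1 lies at 1.73 in border-associated macrophage-like cells and at -0.90 in monocyte-like cells at 1 h. Some members passed the filter only through libraries after ischaemia: Nr4a2 and Nr4a3 in border-associated macrophage-like, Nr4a3 in monocyte-like, and Egr2 and Nr4a3 in neutrophil-like cells. Egr2 in conventional dendritic cell-like cells passed it only through naive libraries. Egr3 passed it only through naive and 1 h libraries in monocyte-like, B cell-like and T cell-like cells.

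In monocyte-like cells Nr4a1 and Nr4a2 fell at both times. Nr4a1 was at 365 CPM in Lyz2-cre and 303 CPM in fl/fl libraries of 1 h, against 726 CPM and 588 CPM in naive ones, a log2 difference of -0.90 (SE 0.16, adjusted p = 0.0123). At 3 h it was at 174 CPM and 199 CPM (-1.61 against naive, adjusted p = 1.96e-05), and no 3 h library reached the lowest of the others. Nr4a2 was at 26.7 CPM and 32.6 CPM at 1 h, against 86.9 CPM and 80.4 CPM in naive brain (-1.45, SE 0.21, adjusted p = 0.00443), and at 35.4 CPM and 43.5 CPM at 3 h (-0.91, adjusted p = 0.00231). These were the 2 members called of 6 at 1 h, where 2.51% of all genes were called, and both calls of 1 h were lost without the Lyz2-cre naive library (adjusted p = 0.14 and 0.0647). Egr1 had a difference of -1.19 at 1 h (adjusted p = 0.129), which passed without the Lyz2-cre naive (0.0397), Lyz2-cre 1 h (1.77e-07) or fl/fl 1 h library (0.0283), and Egr3 passed without the fl/fl 1 h library (0.033).

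At 3 h, 5 of the 6 members were called in monocyte-like cells, where 28.2% of all genes were. The count includes Nr4a3, which passed the filter on low counts only through the 3 h libraries, where it was high. It also includes Egr3, which passed that filter only through the naive libraries and the fl/fl 1 h library, where it was high. Besides Nr4a1 and Nr4a2, Egr1 fell by 1.39 (adjusted p = 0.0168) and Egr3 fell by 3.62 (0.00191), the second with 10 UMIs in 3 h against 32 in naive libraries, a ratio of 0.0714 (95% interval 0.0313 to 0.149). Egr1, which supports macrophage differentiation, was at 152 CPM in Lyz2-cre and 164 CPM in fl/fl libraries of 3 h, against 382 CPM and 577 CPM in naive ones. The microglia-like Egr1 level times the P2ry12 ratio was 49.3 CPM and 74.9 CPM at 3 h, against 213 CPM and 397 CPM in naive brain. For Nr4a1 the same product was at most 11 CPM. For Egr3 it was 3.86 CPM and 10.2 CPM in naive Lyz2-cre and fl/fl libraries, where 10.3 CPM and 14.1 CPM were counted. Nr4a3 had 95 UMIs at 3 h against 3 in naive brain, a ratio of 7.24 (95% interval 2.40 to 35.7). Its fitted difference was 2.99 (adjusted p = 0.0103), but whether it was tested at all depended on that rise. Egr2 had a difference of 0.76 and did not pass. Only the Nr4a1 call was kept in every fit that left out 1 library: Egr1 was lost without the Lyz2-cre 3 h (adjusted p = 0.0892) or fl/fl 3 h library (0.0621), Egr3 without the Lyz2-cre naive library (0.0653), Nr4a2 without the naive (0.0643) or 3 h library of Lyz2-cre mice (0.0983), and Nr4a3 without the fl/fl naive (0.071) or Lyz2-cre 3 h library (0.166).

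The class held 3 clusters, one of them of 18 cells led by Cxcl9 and Cxcl10 and the other 2 with different Nr4a1 levels, one led by Ace, a gene of patrolling monocytes, and one by Vcan, a gene of classical ones. The Ace-led cluster made up 64.5% of naive, 52.3% of 1 h and 17.5% of 3 h monocyte-like cells in Lyz2-cre mice, and 50.4%, 52.5% and 19.8% in fl/fl mice. In it Nr4a1 was at 859 CPM and 654 CPM at 1 h in Lyz2-cre and fl/fl libraries, against 1139 CPM and 1185 CPM in naive brain, and this difference of -0.55 did not pass (SE 0.14, adjusted p = 0.0935), where 0.738% of genes were called. At 3 h it was at 601 CPM and 623 CPM, a fall of 0.83 on the log2 scale (adjusted p = 0.00279), where 7.27% of genes were called. In the Vcan-led cluster Nr4a1 was at 109 CPM and 103 CPM at 1 h, against 318 CPM and 273 CPM in naive brain (-1.43, SE 0.18, adjusted p = 0.00488), and at 120 CPM and 134 CPM at 3 h (-1.09, adjusted p = 0.00068). There 1.19% of genes were called at 1 h and 19.5% at 3 h. Nr4a2 was called in the Vcan-led cluster at 1 h (-2.13, adjusted p = 0.00837) and 3 h (-1.37, 0.00191) but not in the Ace-led one (-0.57, 0.66, and -1.10, 0.188). Egr1 was called in the Ace-led cluster at 1 h (-1.50, adjusted p = 0.00582) and 3 h (-1.73, 0.000155), and in the Vcan-led one at 3 h (-1.20, 0.0463) but not at 1 h (-0.75, 0.376). At 3 h the log2 difference of Nr4a1 in the whole class, -1.61, was larger in size than that of either cluster. These fits were added after the data were seen, as were all others on single clusters.

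**Figure D5:**
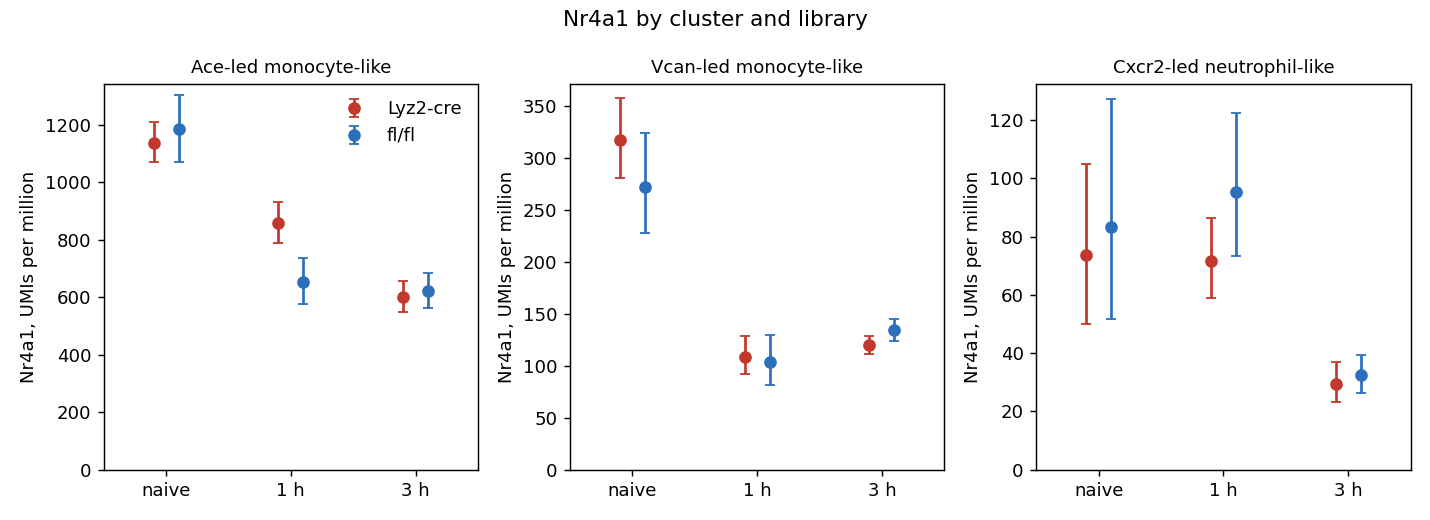
Nr4a1 level, in CPM from 0, by time in the Ace-led and Vcan-led monocyte-like clusters and the Cxcr2-led neutrophil-like cluster, for Lyz2-cre (red, left) and fl/fl (blue, right) libraries. Bars are exact 95% Poisson intervals; at 3 h both libraries are below both naive ones in all 3 panels.

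In neutrophil-like cells none of the 5 members tested was called at 1 h by edgeR's quasi-likelihood test, where 0.856% of all genes were. DESeq2 also called 0, and Nr4a1 alone had an unadjusted p under 0.05. Nr4a1 was at 41.8 CPM in Lyz2-cre and 80.4 CPM in fl/fl libraries of 1 h, against 30.1 CPM and 42.8 CPM in naive ones (log2 difference 0.82, adjusted p = 0.234). Egr2 passed without the Lyz2-cre 1 h library (0.0231), and Nr4a3, at 2.81, without the Lyz2-cre 1 h (0.000116), Lyz2-cre 3 h (0.0224) or fl/fl 3 h library (0.016). At 3 h, where 29.6% of genes were called, Nr4a3 and Egr2 rose. Both passed the filter on low counts only through the 3 h libraries and the fl/fl 1 h library, where they were high. Whether they were tested at all in the main fit thus depended on the rise. Nr4a3 was at 39.8 CPM and 29.3 CPM at 3 h, against 0 and 3.17 CPM in naive brain, with 208 UMIs at 3 h against 2, a ratio of 39.0 (95% interval 10.7 to 324). Its fitted difference of 5.39 (SE 0.96, adjusted p = 0.00291) depends on the prior count but was called in all 13 alternatives, and it was 4.04 (adjusted p = 0.00721) in the Cxcr2-led cluster of mature neutrophils alone. Egr2 rose by 2.20 (adjusted p = 0.0463), a call that 5 of 13 alternatives lost, among them each fit without the Lyz2-cre 3 h (1.04), Lyz2-cre naive (2.77) or fl/fl naive library (1.96). In the Cxcr2-led cluster alone it was at 1.44 and did not pass (adjusted p = 0.178). Egr1 at 3 h, at 0.23, was at 0.86 and passed without the fl/fl 3 h library (adjusted p = 0.00975). The second neutrophil-like cluster, led by Ltf, a granule gene of immature neutrophils, made up 51.8% of naive, 41.2% of 1 h and 3.01% of 3 h neutrophil-like cells in Lyz2-cre mice, and 40% of naive, 13.1% of 1 h and 2.84% of 3 h ones in fl/fl mice. In the same class at 3 h, 11 of 18 other immediate early genes and 11 of 14 NF-kB genes rose and none of either list fell.

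The time effects of monocyte-like and neutrophil-like cells were set against each other in 1 model with each library as a block. At 1 h 1 of the 6 members was called, where 0.663% of 9497 genes were. Nr4a1 differed by -1.70 on the log2 scale, monocyte-like minus neutrophil-like (SE 0.32, adjusted p = 0.00824), a call lost with library totals as the scale (0.111) and without the Lyz2-cre naive library (0.326). Between the Vcan-led and Cxcr2-led clusters the difference was -1.80 (adjusted p = 0.00536), where 0.535% of genes were called, and between the Ace-led and Cxcr2-led clusters it was -0.92 and did not pass (0.354), where 0.242% were called. At 3 h 3 of 6 members passed the threshold, where 19.6% of genes did: Nr4a1 at -1.67 (adjusted p = 0.000692), Egr3 at -4.52 (0.000195) and Nr4a2. For Nr4a2 no difference is given, since it passed the filter on low counts through monocyte-like cells and had 0 UMIs in naive neutrophil-like cells against 10 at 3 h. The Nr4a1 difference of 3 h was -0.33 (adjusted p = 0.638) and -0.01 (0.999) between the same pairs of clusters, where 5.77% and 4.89% of genes were called. In the Cxcr2-led cluster Nr4a1 was at 29.4 CPM and 32.4 CPM at 3 h in Lyz2-cre and fl/fl libraries, against 73.8 CPM and 83.3 CPM in naive brain (-0.89, adjusted p = 0.0565), where 16.5% of genes were called, and at 1 h, where 2.01% were, it was at 71.7 CPM and 95.5 CPM (0.34, adjusted p = 0.728). Egr1 passed at 1 h without the Lyz2-cre 1 h library (0.00163) and at 3 h, where its difference was -1.61 (0.0561), without either 1 h library (2.63e-07 and 2.41e-08). Between the Ace-led and Cxcr2-led clusters the Egr1 difference of 3 h was -1.41 and passed (0.0413), and Egr3 did not pass the filter on low counts. Between the Vcan-led and Cxcr2-led ones the Egr3 difference of 3 h was called (-6.15, 0.0029).

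Conventional dendritic cell-like cells, 29 to 65 per library, had lower Egr1 and Egr2 and higher Nr4a3 after ischaemia. Egr1 was at 177 CPM in Lyz2-cre and 218 CPM in fl/fl libraries of 1 h, against 586 CPM and 472 CPM in naive ones (log2 difference -1.33, adjusted p = 0.000154), and Egr2 fell by 2.79 (0.00351). Nr4a3 was at 76.9 CPM and 80.0 CPM at 1 h, against 39.3 CPM and 15.9 CPM (1.64, adjusted p = 0.0168). These were 3 of 5 members tested, where 6.51% of genes were called. Among them, Egr2 passed the filter on low counts only through the naive libraries, where it was high. At 3 h 4 of 5 were called, where 14.2% of genes were: Egr1 fell by 1.76 (adjusted p = 1.87e-06), Egr2 fell by 1.89 (0.00349), Nr4a1 fell by 0.76 (0.0353) and Nr4a3 rose by 1.44 (0.0123). All 3 calls of 1 h were lost without the Lyz2-cre naive library, the Egr2 call also without the Lyz2-cre 1 h library (0.125) and the Nr4a3 call without the fl/fl 1 h library (0.301). Without the Lyz2-cre naive or the Lyz2-cre 3 h library Egr1 alone of the 4 calls of 3 h was kept, and the Nr4a1 call was also lost without the fl/fl 3 h library (0.177). Nr4a2, at 0.97 for 1 h and 0.72 for 3 h, passed without the fl/fl naive (0.00215 and 0.00822) or fl/fl 1 h library (0.00184 and 0.0208), at 1 h without the Lyz2-cre 3 h library (0.00949) and at 3 h without the Lyz2-cre 1 h library (0.0286). The summed microglia markers of this class were 3903 CPM and 4144 CPM at 1 h in Lyz2-cre and fl/fl libraries, against 1518 CPM and 1557 CPM in naive brain.

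In NK cell-like cells, 54 to 134 per library, Egr1 fell and Nr4a1 rose. Egr1 was at 131 CPM in Lyz2-cre and 56.4 CPM in fl/fl libraries of 1 h, against 288 CPM and 316 CPM in naive ones (log2 difference -1.48, adjusted p = 9.6e-05). The microglia-like Egr1 level times the P2ry12 ratio was 41.3 CPM and 20.2 CPM at 1 h, against 276 CPM and 223 CPM in naive brain, which is most of what was counted there. Nr4a1 was at 75.7 CPM and 95.5 CPM at 1 h, against 25.5 CPM and 30.8 CPM (1.64, adjusted p = 0.00174), and the product was at most 13.2 CPM for Nr4a1. The 2 calls were among 4 members tested at 1 h, where 2.81% of genes were called. The Nr4a1 call was lost in 6 of 13 alternatives, among them without the Lyz2-cre 1 h (adjusted p = 0.0542), fl/fl 1 h (0.0579) or Lyz2-cre naive library (0.154). At 3 h Egr1 fell by 0.74 (adjusted p = 0.0448) and Nr4a1 rose by 1.17 (0.0415), where 4.97% of genes were called, and 7 of 13 alternatives lost the Egr1 call and 8 of 13 the Nr4a1 call. Those included every fit without a naive or 3 h library for Egr1, and for Nr4a1 those without either naive library, the Lyz2-cre 1 h or the Lyz2-cre 3 h library. Nr4a2, whose level was highest in this class, had a difference of -0.70 at 3 h that passed without the Lyz2-cre 3 h (0.0229) or fl/fl 1 h library (0.02).

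B cell-like cells, 59 to 303 per library, had lower Egr1 and lower Nr4a1 at 1 h. Nr4a1, which reports antigen receptor signalling in lymphocytes, was at 22.7 CPM in Lyz2-cre and 25.1 CPM in fl/fl libraries of 1 h, against 72.6 CPM and 88.4 CPM in naive ones (log2 difference -1.76, adjusted p = 7.28e-06). Egr1 fell by 0.76 (0.00138), so 2 of 3 members tested were called, where 6.17% of genes were. At 3 h Egr1 fell by 1.45 (adjusted p = 1.88e-11) and Egr3 fell by 1.28 (0.0203), 2 of 3 where 11.5% of genes were called. Egr3 passed the filter on low counts only through the naive and 1 h libraries, where it was high. With doublets kept none of these 4 calls passed, and the Nr4a1 call was also lost without the Lyz2-cre 1 h library (0.142). The Egr1 call of 1 h was lost without any 1 of the naive or 1 h libraries (adjusted p 0.0528 to 0.111), and the Egr3 call without the Lyz2-cre naive (0.664), Lyz2-cre 3 h (0.366) or fl/fl 3 h library (0.072). Nr4a1 at 3 h, at -0.64, passed without the Lyz2-cre naive (0.0344) or Lyz2-cre 3 h library (0.0151). Egr1 itself was counted at 311 CPM and 203 CPM at 1 h, against 523 CPM and 333 CPM in naive brain. The microglia-like Egr1 level times the P2ry12 ratio was 37.0 CPM and 19.2 CPM at 1 h in this class, against 263 CPM and 211 CPM in naive brain. Less the product, Egr1 was not lower at 1 h, at 274 CPM and 184 CPM against 260 CPM and 121 CPM in naive brain. At 3 h it stood at 121 CPM and 81.6 CPM less the product. The part of microglia RNA in the Egr1 calls was not tested.

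T cell-like cells, 91 to 494 per library, had no member called of 5 tested at either time by edgeR's quasi-likelihood test, where 3.08% of genes were called at 1 h and 5.53% at 3 h. DESeq2 also called 0, and 1 member had an unadjusted p under 0.05 at each time. Nr4a1 was at 116 CPM in Lyz2-cre and 63.7 CPM in fl/fl libraries of 1 h, against 37.1 CPM and 51.3 CPM in naive ones (log2 difference 1.02, adjusted p = 0.13). Without the fl/fl naive library that difference was 1.78 (adjusted p = 0.00069), and without the Lyz2-cre 3 h library 1.05 (0.0275). Egr3 had a difference of -2.77 at 3 h (adjusted p = 0.0579), which passed without either 1 h library (0.0458 and 0.044) or the fl/fl 3 h library (0.0361). Egr1, with differences of -1.29 at 1 h and -1.05 at 3 h, passed at 1 h without the Lyz2-cre 3 h (2.02e-05) or fl/fl 3 h library (0.00225) and at 3 h without the Lyz2-cre 3 h library (4.33e-07). Nr4a2 passed at 1 h without the fl/fl 1 h library (0.0324) and at 3 h without the Lyz2-cre 1 h (0.00711) or fl/fl 1 h library (0.00648).

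The genotype contrast did not choose the members, and in microglia-like cells 4 of the 6 were lower in Lyz2-cre than in fl/fl libraries. There 0.468% of all genes were called, and 0.422% lower. Egr3 in Lyz2-cre libraries was at 0.659 of its fl/fl level in naive, 0.619 in 1 h and 0.693 in 3 h brain (log2 difference -0.66, SE 0.07, adjusted p = 0.00302). Nr4a1 was at 0.681, 0.616 and 0.788 of its fl/fl level at the same times (-0.59, SE 0.07, adjusted p = 0.00806), and Egr2 at 0.825, 0.639 and 0.715 (-0.52, SE 0.08, adjusted p = 0.0212). Nr4a3 was at 0.328 and 0.464 of its fl/fl level at 1 h and 3 h and at 1.12 in naive brain, where it had 11 UMIs in Lyz2-cre and 9 in fl/fl libraries (-1.29, SE 0.17, adjusted p = 0.023). Egr1, lower in 3 of 3 pairs at 0.937, 0.757 and 0.929, did not pass (-0.26, adjusted p = 0.309), and neither did Nr4a2 (-1.03, adjusted p = 0.709), which was at -1.97 and passed without the Lyz2-cre 1 h (0.00747) or fl/fl 1 h library (0.00762).

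These genotype calls rested on single libraries. Without the fl/fl naive library all 4 were lost, with adjusted p from 0.0527 for Nr4a3 to 0.0938 for Nr4a1. Without the Lyz2-cre naive library Nr4a3 alone was kept, without either 1 h library Egr3 alone was kept, and without either 3 h library all 4 were kept. The differences themselves stayed between -0.71 and -0.46 for Egr2, Egr3 and Nr4a1 over all 13 alternatives. Of the list genes, Maff (-1.19, adjusted p = 0.00302), Ptgs2 (-0.94, 0.00977), Nfkbiz (-0.48, 0.0175), Hspa1b (-0.91, 0.00302) and the chemokine gene Ccl3 (-0.78, 0.00928) were also lower in Lyz2-cre libraries. Genotype and pool cannot be told apart within a time, since each combination was 1 pool. The microglia-like cells of the genotypes also differed in cluster make-up. At 3 h the Gdf15-led cluster held 19.3% of Lyz2-cre and 26.5% of fl/fl cells, and Nr4a1 there was higher in Lyz2-cre (481 against 355 CPM). In the Hspa1a-led cluster of 3 h Nr4a1 was lower in Lyz2-cre (542 against 778 CPM). The part of make-up in the genotype differences was not tested. No member was called for genotype in border-associated macrophage-like (0.0788% of genes called), monocyte-like (0.0775%), neutrophil-like (0.0259%), conventional dendritic cell-like (0.138%), NK cell-like (0.11%) or T cell-like cells (0.0381%). DESeq2 also called 0 there, and 6 of the members' values had an unadjusted p under 0.05. Some passed when 1 library was left out. In border-associated macrophage-like cells Nr4a1 was higher in Lyz2-cre libraries by 1.34 (adjusted p = 0.077) and passed without the Lyz2-cre 3 h (0.01) or fl/fl 3 h library (0.00754), and Egr2, at 1.37, passed without any 1 library of 1 h or 3 h (0.0295 to 0.0348). In conventional dendritic cell-like cells Nr4a1 (0.0417) and Nr4a3 (0.0389) passed without the fl/fl 1 h library. In neutrophil-like cells Egr1 and Nr4a3 passed as lower in Lyz2-cre libraries without the Lyz2-cre 3 h (0.0106 and 0.0123) or fl/fl 3 h library (0.0028 and 0.00331). In B cell-like cells, where 1% of genes were called, Egr1 was higher in Lyz2-cre libraries by 0.64 (adjusted p = 0.00703), a call that 8 of 13 alternatives lost, among them each fit without the naive or 1 h libraries of either genotype or the Lyz2-cre 3 h library.

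The genes whose pattern was most like each member were sought over the 18 sums of microglia-like, monocyte-like and neutrophil-like cells, among 7654 genes, by Pearson's r of log2(CPM + 1). These sums share libraries, and differences between classes weigh heavily in r. Among the genes nearest to Egr1 were Ier5 (0.962) and Otud1 (0.957), and the nearest to Egr2 was Bmp2k (0.949) and to Egr3 Senp6 (0.947). For Nr4a1 the nearest gene was another member, Nr4a2 (0.926), before Mvd (0.910). For Nr4a2 it was B2m (0.938) and for Nr4a3 Rab20 (0.885). No EGR member was among the 5 genes nearest to an NR4A member, nor the reverse. The members were chosen by opposite time courses in microglia, and the microglia-like sums are part of the 18. This separation is therefore no independent result.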

How the data were processed

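UMI counts per gene and cell were deposited by the authors as filtered 10x matrices, made with Cell Ranger 3.0.2 on mm10 per the submitters' processing notes. The extract protocol in the labels names 3′ v3 libraries of sorted PI-negative CD45-positive cells after Dounce homogenisation and a Percoll gradient. Cells needed 300 genes and no more than 10% of UMIs from mitochondria (50634 passed), 3557 doublets scored by simulated doublets were removed, and 47077 cells were clustered in scanpy 1.11.5 (2000 variable genes without the members, 30 components, resolution 1) into 22 clusters, which were named from marker lists. Raw counts of each class in each library were added up and tested with edgeR 4.0.16 (TMM, filterByExpr, quasi-likelihood, Benjamini-Hochberg over all genes tested) with genotype and time as terms, which leaves 2 residual degrees of freedom, or 1 without a library. The comparison of monocyte-like and neutrophil-like cells used library blocks and leaves 3. Classes with under 20 cells in a library were not tested. Levels carry exact 95% Poisson intervals, which cover counting error only, and shares of cells were taken after thinning each cell to 1000 or 2000 UMIs, leaving out shallower cells. Simulated counts were used to check only the edgeR fit of single classes, in some classes and for 1 h against naive. The comparison of time effects between classes and the other steps had no such check. The alternatives were other scale factors, DESeq2 1.42.0, no count filter, a stricter cell filter (500 genes, 5% mitochondrial), no doublet removal, clustering with the members, and each library left out. The members and the gene lists were chosen with earlier results of these data known. Named genes were the members and, from each list, at most 4 called genes with the largest differences. P-values compare single pooled libraries, and no group had a second one. The variance behind them was mostly borrowed from other genes. The median prior had from 7.78 (microglia-like) to 49.6 (NK cell-like) degrees of freedom, against 2 residual ones. In B cell-like cells it was infinite, which gives a gene's own spread no weight.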

Additional observations from a re-analysis of the deposited data

Results flagged for a closer look

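The 3 results below stood out because the effect of time differed between monocyte-like and neutrophil-like cells in a direct test of that difference (edgeR's quasi-likelihood test with an interaction term and Benjamini-Hochberg adjustment). At 1 h against naive, the effect on Nr4a1 in monocyte-like minus that in neutrophil-like cells was -1.70 on the log2 scale. At 3 h it was -1.67 for Nr4a1 and -4.52 for Egr3. In monocyte-like cells Egr3 had 10 UMIs at 3 h against 32 in naive brain. Its microglia-like level times the P2ry12 ratio was 3.86 CPM and 10.2 CPM in naive Lyz2-cre and fl/fl libraries. There, 10.3 CPM and 14.1 CPM were counted in monocyte-like cells, and the part of microglia RNA was not tested. Between single clusters the Nr4a1 difference of 3 h was -0.33 (Vcan-led minus Cxcr2-led) and -0.01 (Ace-led minus Cxcr2-led), and neither passed. No group had enough libraries for a search for single samples that stand apart.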

How the results depend on the processing

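No paired analysis was possible because each time and genotype is 1 library and the labels give no replicate numbers. The difference of monocyte-like and neutrophil-like effects alone used each library as a block. No called value changed sign under the alternatives that were run. Leaving out 1 library gave, for 1 h, 3 h and genotype: B cell-like 0 to 2, 1 to 2 and 0 to 1 members; NK cell-like 1 to 2, 0 to 3 and 0; T cell-like 0 to 2, 0 to 2 and 0; border-associated macrophage-like 4 to 6, 3 to 5 and 0 to 2; conventional dendritic cell-like 0 to 4, 1 to 5 and 0 to 2; monocyte-like 1 to 4, 2 to 5 and 0; neutrophil-like 0 to 2, 1 to 3 and 0 to 2. Genotype in microglia-like cells gave 0 to 4, and the difference of monocyte-like and neutrophil-like time effects 0 to 2 at 1 h and 2 to 4 at 3 h.

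Where a count of called members moved by over 1.5 times under another alternative, the cause was not tested. In B cell-like cells, DESeq2, the stricter cell filter and no doublet removal gave 0, 1 and 0 in place of 2 at 1 h, and 0, 0 and 0 in place of 1 for genotype. At 3 h, library totals, DESeq2, no count filter and the stricter filter gave 1 and no doublet removal 0, in place of 2. In NK cell-like cells, DESeq2, the stricter filter and no doublet removal gave 1 in place of 2 at 1 h and 0 in place of 2 at 3 h, where library totals gave 1. In T cell-like cells, no count filter gave 1 and no doublet removal 2 at each time in place of 0, and library totals and clustering with the members gave 1 at 3 h. In border-associated macrophage-like cells, no doublet removal gave 5 in place of 3 at 3 h, and no count filter, the stricter filter and clustering with the members gave 1 in place of 0 for genotype. In conventional dendritic cell-like cells, DESeq2 gave 1 in place of 3 at 1 h and 1 in place of 4 at 3 h, and no count filter gave 1 in place of 0 for genotype. The stricter filter gave 1 in place of 2 in monocyte-like cells at 1 h, and library totals and DESeq2 gave 1 in place of 2 in neutrophil-like cells at 3 h. For the difference of monocyte-like and neutrophil-like effects, library totals gave 0 in place of 1 at 1 h. The cluster pairs, chosen after seeing the data, gave 0 at 1 h (Ace-led with Cxcr2-led) and 1 each at 3 h in place of 3, which was Egr3 with the Vcan-led cluster and, with the Ace-led one, Egr1, not among the 3. Library totals moved the median of all genes at 3 h by -0.35 in neutrophil-like and -0.23 in monocyte-like cells. Values of single genes under these alternatives stayed on their side of the threshold or within their interval in 2146 cases, lost the call in 102, gained it in 71 and moved in 208.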
